A study of Mus musculus with 6 samples.

Results

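The 10 genes described here make, import, break down or sense prostaglandins: the cyclooxygenase genes Ptgs1 and Ptgs2, the synthase genes Ptges and Ptgis, the transporter gene Slco2a1, the dehydrogenase gene Hpgd, the reductase gene Akr1c18 and the receptor genes Ptger2, Ptger4 and Ptgfr. They were taken by gene symbol from 22300 named genes on the array, and each was listed in 1 row. The set was proposed with the difference between the 2 groups already known, so the levels and differences of these 10 genes are a description and carry no test. Total RNA of cultured mouse mesenchymal stem cells was hybridised to Affymetrix arrays. The 3 population arrays came from MSC21, a mixed culture of adherent cells extracted from bone marrow. The 3 clone arrays came from Clone 4L.1.4, a tertiary clone of MSC21, so this group stands for 1 clone and the population for 1 culture line. Both groups were grown in the same stem cell medium, with no further treatment named, and independent samples were harvested at confluence. The sources used here do not give the strain, sex or age of the mice, nor whether the population samples came from separate animals. The 3 clone samples share 1 clone and cannot stand for separate animals. P-values therefore measure only the spread between these samples, which may be technical.

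Prostaglandins are signalling lipids made from arachidonic acid that phospholipases release from membranes. Cyclooxygenases turn arachidonic acid into a common precursor, and terminal synthases turn that precursor into prostaglandin E, prostacyclin and related products. The signal ends when a transporter carries prostaglandin into cells and 15-hydroxyprostaglandin dehydrogenase oxidises it there, and cells sense prostaglandins through G protein-coupled receptors. In marrow stromal cells, prostaglandin E is known for restraining immune cells and for acting on bone formation.

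The promoters of Ptgs2, Ptges and Hpgd are shown because these genes encode the inducible steps that make prostaglandin E and the step that inactivates it, and because their levels differed in opposite directions. The windows run from 250 bases before the annotated transcript start to 30 bases after it, 5′ to 3′, from RefSeq (GRCm38.p6). Capitals mark matches on either strand to 6 short motifs: the cyclic AMP response element half-site TGACG, the C/EBP palindrome TTGCGCAA, the E-box CACGTG, the Egr-type motif GTGGGCG, the GC box GGGCGG and the TATA box TATAAA.
Ptgs2 (chr1:150099781-150100060, forward strand): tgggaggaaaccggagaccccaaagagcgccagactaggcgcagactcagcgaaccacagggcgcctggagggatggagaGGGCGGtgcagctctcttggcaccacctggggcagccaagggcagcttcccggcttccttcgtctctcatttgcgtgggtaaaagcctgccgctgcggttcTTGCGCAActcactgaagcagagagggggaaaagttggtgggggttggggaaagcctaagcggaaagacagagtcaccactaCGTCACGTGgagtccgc
Ptges (chr2:30903268-30903547, reverse strand): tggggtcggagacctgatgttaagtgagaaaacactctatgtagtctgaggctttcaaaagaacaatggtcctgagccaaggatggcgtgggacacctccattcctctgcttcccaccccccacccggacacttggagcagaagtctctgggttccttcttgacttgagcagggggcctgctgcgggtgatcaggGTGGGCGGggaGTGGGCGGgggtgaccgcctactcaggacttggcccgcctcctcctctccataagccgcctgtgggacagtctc
Hpgd (chr8:56294302-56294581, forward strand): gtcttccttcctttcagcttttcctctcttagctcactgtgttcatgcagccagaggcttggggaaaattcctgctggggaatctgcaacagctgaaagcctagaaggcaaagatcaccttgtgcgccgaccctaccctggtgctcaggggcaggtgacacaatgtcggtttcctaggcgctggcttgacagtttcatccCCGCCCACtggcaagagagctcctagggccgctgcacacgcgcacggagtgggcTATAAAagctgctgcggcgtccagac
The Ptgs2 window held the C/EBP palindrome 69 bases before the start, and a TGACG half-site on the reverse strand 13 bases after it whose end overlaps an E-box. The palindrome occurred in 0.18% of all 32851 promoter windows of the same length, the half-site in 19.9% and the E-box in 6.79%. The Ptges window held 2 Egr-type matches, 55 and 44 bases before the start, each overlapping a GC box. The Hpgd window held 1 Egr-type match on the reverse strand, 49 bases before the start, which also overlaps a GC box, and a TATA box that begins 4 bases after the annotated start. Egr-type matches lay in 7.67% of all windows, GC boxes in 34.7% and TATA boxes in 13.1%. Of the 9 genes of the set with a RefSeq window, 1 held the half-site, 1 the palindrome, 3 the Egr-type motif and 7 a GC box. The AP-1 motif TGANTCA was in none of these 9 windows and in 7.46% of all. A match describes letters only and is not evidence of binding. All positions are counted from the annotated start, and where transcription begins in these cells was not measured.

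Within the set, the synthesis genes Ptgs1, Ptgs2, Ptges and Ptgis were lower in the clone, while Slco2a1, for uptake, and Hpgd, for inactivation, were higher. Other genes with these roles did not all follow. Levels are RMA values on the log2 scale, in which 1 unit is a 2-fold difference. They are relative to the rest of each array, and the level of one gene is not comparable with that of another as an amount of RNA. Percentiles and positions against the array median rank only signal, among all rows, of which 10433 carry no symbol. Array medians lay between 5.19 and 5.25, and lower quartiles between 4.54 and 4.58. A lower level in a bulk sample cannot tell fewer expressing cells from less RNA per cell. The plot of array levels shows all 60 values.

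**Figure D1:**
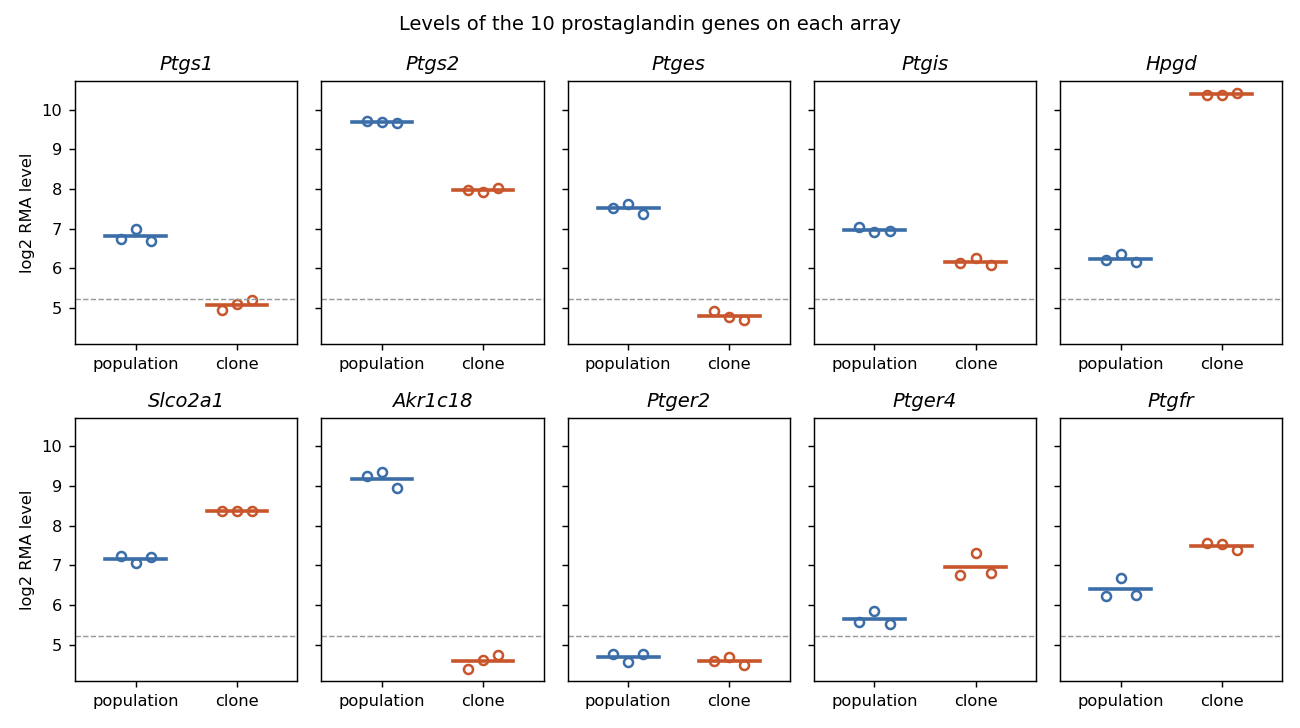
Log2 RMA level (y axis) of each of the 10 genes on the 3 population arrays (blue circles) and the 3 clone arrays (orange circles), with group means as bars and the mean of the 6 array medians as a dashed line. Ptger2 is the gene whose groups overlap, and the clone levels of Ptgs1, Ptges and Akr1c18 lie below the dashed line.

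Ptgs2 encodes the cyclooxygenase that cells induce on stimulation. Its level was 9.71, 9.69 and 9.67 on population arrays 1 to 3 and 7.98, 7.93 and 8.03 on clone arrays 1 to 3. The groups did not overlap, and the spread within each was small, with SDs of 0.02 and 0.05 (n = 3 each). The difference, clone minus population, was -1.72 ± 0.05 (SE), with a 95% interval from -1.84 to -1.59, a 3.29-fold lower level in the clone. The clone mean of 7.98 still lay at percentile 80.4 of all rows, against 92.2 in the population, so Ptgs2 stayed among the brighter rows of the clone.

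Ptgs1 encodes the cyclooxygenase that many cells carry without stimulation. It stood at 6.74, 6.99 and 6.70 in the population and at 4.95, 5.09 and 5.21 in the clone. All 3 clone values lay below the median of their arrays, and all 3 population values above. The difference was -1.73 ± 0.10, with a 95% interval from -1.97 to -1.48, in size close to that of Ptgs2. RMA compresses differences near the low end of an array, so the 3.31-fold size for Ptgs1 is less exact than that for Ptgs2.

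Ptges encodes the inducible membrane-bound prostaglandin E synthase, which acts directly after the cyclooxygenases. Its levels were 7.52, 7.63 and 7.38 in the population against 4.93, 4.78 and 4.69 in the clone. The clone arrays sat at percentile 37.8 of all rows on average, below the median on each array. Among the 4 synthesis genes this was the largest difference, -2.71 ± 0.09 (95% interval from -2.93 to -2.49), or 6.54-fold. The name Ptges has also been used for Ptges3, the cytosolic prostaglandin E synthase and co-chaperone, which the array lists separately in 3 rows. The brightest Ptges3 row had a population level of 12.37 ± 0.03 and a clone level of 12.41 ± 0.05 (mean ± SD, n = 3), and its difference of 0.04 did not pass the test (limma adjusted p = 0.663). Another Ptges3 row passed, at 0.24 (adjusted p = 0.0253), and the remaining one, at 0.28, did not (adjusted p = 0.0791). Whether the row labelled Ptges measures Ptges itself could not be settled from the files used here, and its values are given under the symbol as deposited.

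Ptgis encodes prostacyclin synthase, the cytochrome P450 enzyme that makes prostacyclin from the same precursor. It measured 7.04, 6.91 and 6.93 in the population and 6.13, 6.25 and 6.09 in the clone, with no overlap. The difference was -0.80 ± 0.07, a 1.74-fold lower level and the smallest of the synthesis genes. Its level stayed above the array median on all 6 arrays. The receptor gene for prostacyclin, Ptgir, lay below the array median on all 6 arrays, at 4.86 ± 0.09 and 4.94 ± 0.07, and did not pass the test (difference 0.08, adjusted p = 0.478).

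Hpgd encodes 15-hydroxyprostaglandin dehydrogenase, which inactivates prostaglandins by oxidation. It had levels of 6.20, 6.35 and 6.15 in the population and 10.37, 10.38 and 10.42 in the clone. The clone arrays differed among themselves by less than the population arrays (SD 0.03 against 0.11). The difference was 4.16 ± 0.07 (95% interval from 4.00 to 4.31), a 17.8-fold higher level, which ranked 13th in size among the 35556 rows. Both group means lay above the array medians, so the size does not rest on values at the low end.

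Slco2a1 encodes the prostaglandin transporter, which takes prostaglandins up into the cells where Hpgd acts. It stood at 7.24, 7.05 and 7.20 in the population and at 8.37, 8.36 and 8.37 in the clone. The 3 clone arrays were nearly equal, and all lay above the 3 population arrays. The difference was 1.20 ± 0.06, or 2.30-fold, smaller than that of Hpgd in the same direction.

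**Figure D2:**
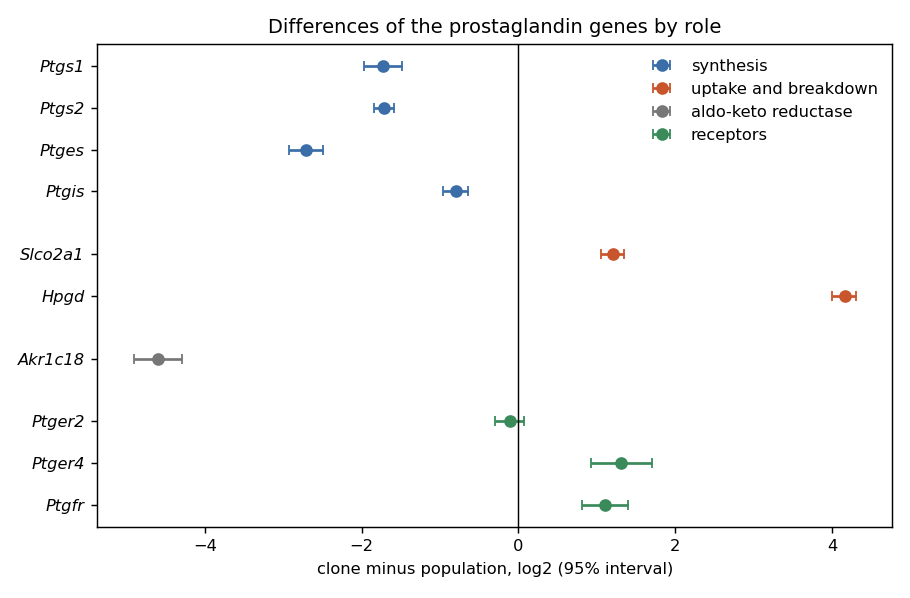
Difference between the groups, clone minus population on the log2 scale (x axis), for the 10 genes grouped by role, with 95% intervals from the fit as bars. The 4 synthesis genes lie between -2.71 and -0.80, Slco2a1 and Hpgd at 1.20 and 4.16, and Ptger2 spans 0.

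Akr1c18 encodes an aldo-keto reductase best known in mice for inactivating progesterone; the related human enzyme AKR1C3 makes prostaglandin F. It had 9.26, 9.35 and 8.95 in the population and 4.39, 4.61 and 4.75 in the clone, the largest difference of the 10 genes. The clone values reached the low end of the arrays, at percentile 26.1 of all rows, around the lower quartiles. The difference of -4.60 ± 0.13 (24.3-fold) ranked 6th in size among all rows, but its size is not exact at so low a clone level. Akr1c18 lies on chromosome 13, whose genes above the median level had a median difference of -0.58; after centring every chromosome on that median, an alternative added once the data had been seen, the difference was -4.03.

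Among other aldo-keto reductase genes of chromosome 13, Akr1e1 alone passed in the fit as reported, with a smaller difference than Akr1c18. Of 8 measured, 7 did not pass the test, with differences between -0.10 and 0.14, and 6 of these lay below the array median on all 6 arrays. Population means of the 7 ran from 4.22 (Akr1c6) to 5.13 (Akr1c14), too low for a fall of the size of Akr1c18 to be seen. With each chromosome centred on the median of all its genes, Akr1c6 (0.20) and Akr1c14 (0.27) passed as higher. In the fit as reported their differences were 0.06 and 0.14. The centring subtracts the chromosome 13 median of -0.13 from every gene there, dim ones such as Akr1c6 included, so these calls are not read as rises. Akr1e1, which encodes a reductase of an anhydro sugar, fell from 8.90 ± 0.29 to 7.43 ± 0.19 (difference -1.48 ± 0.16, adjusted p = 0.000830). Members of the Akr1c group are similar in sequence, and signal shared between their probes was not tested.

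Ptgfr encodes the receptor for prostaglandin F, and it was higher in the clone. Its levels were 6.24, 6.68 and 6.26 in the population and 7.56, 7.54 and 7.40 in the clone. Population array 2 stood apart from arrays 1 and 3, yet below every clone array. The difference was 1.10 ± 0.13, a 2.15-fold higher level (95% interval from 0.81 to 1.40 on the log2 scale).

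Ptger4 encodes the EP4 receptor for prostaglandin E, which raises cyclic AMP through the stimulatory G protein. It measured 5.58, 5.85 and 5.52 in the population and 6.77, 7.32 and 6.81 in the clone. Clone array 2 was the highest, and the clone spread (SD 0.30) was the widest of the 10 genes in either group. The difference was 1.31 ± 0.16, or 2.49-fold, with a 95% interval from 0.92 to 1.70. Both receptor genes that were higher lie on chromosomes whose brighter genes were lower as a whole. The median difference of genes above the median level was -0.50 on chromosome 15, which carries Ptger4, and -0.42 on chromosome 3, which carries Ptgfr. With chromosomes centred on these medians the differences were 1.81 for Ptger4 and 1.53 for Ptgfr.

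Ptger2 encodes EP2, the other prostaglandin E receptor that couples to the stimulatory G protein. Its levels were 4.77, 4.57 and 4.76 in the population and 4.58, 4.69 and 4.50 in the clone. The groups overlapped, and all 6 values lay below the array medians. The difference was -0.11 ± 0.08 with a 95% interval from -0.30 to 0.07, so a difference in either direction beyond that interval was not seen, while one hidden by low signal was not detectable here.

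In the fit over all rows, 9 of the 10 genes passed an adjusted p of 0.05, 4 higher and 5 lower in the clone, beside 23.8% of all rows. Of those 23.8%, 12.8% were higher and 10.9% lower. The groups did not overlap for the same 9 genes, beside 37.2% of all rows. Because the 10 genes were chosen with this difference known, nothing is read from these counts. The plot of all rows shows where they lie.

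**Figure D3:**
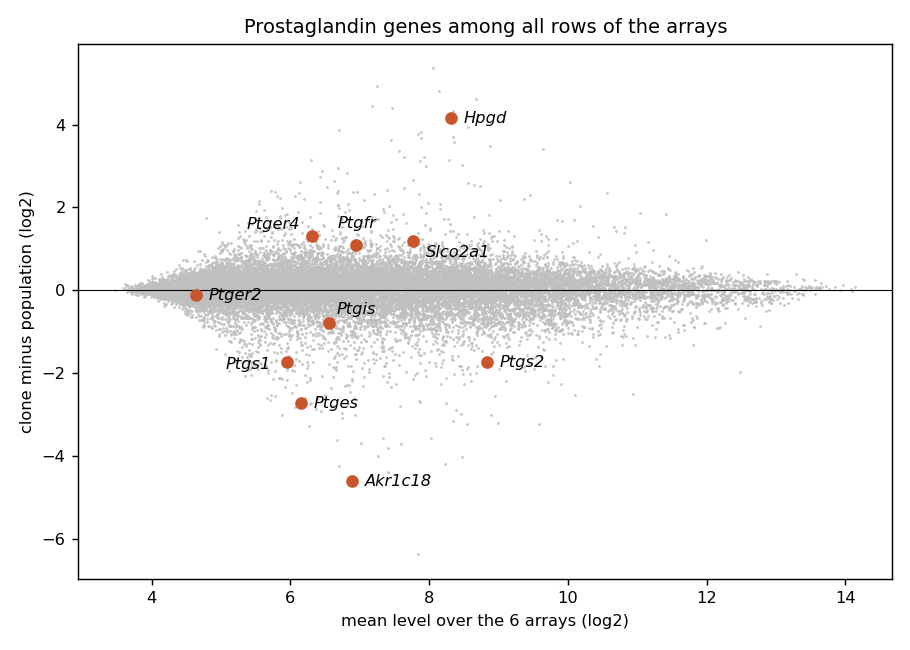
Difference between clone and population (y axis, log2) against the mean level over the 6 arrays (x axis, log2) for all 35556 rows in grey, with the 10 genes in orange. Hpgd and Akr1c18 lie at the outer edge, at 4.16 and -4.60, and Ptger2 lies among the dim rows near 0.

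The genes whose array profile was closest to that of Ptgs2 were Gjb2, Pdgfc and Spaca1, by the root mean square distance between log2 profiles centred over the 6 arrays. Gjb2, which encodes a gap junction protein, lay at a distance of 0.047, with means of 8.85 for the population and 7.13 for the clone. Pdgfc, which encodes a platelet-derived growth factor, and Spaca1, a sperm acrosome gene, both lay at 0.051. For Hpgd the closest were Fmod (0.100), Svep1 (0.112) and H19 (0.165). With 2 groups of 3 arrays such distances mostly measure the size of the group difference, and they are given as a description.

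Outside the 10 genes, 99 genes of the pathway were measured in 8 lists, and 32 of them (32.3%) passed the test, 9 higher and 23 lower. Among all named genes 29.1% passed, 14.5% in each direction. The median difference of the 99 was -0.04, against -0.01 for all named genes. The 10 genes above may have been picked from the same pathway for their differences, so the rest are not a neutral sample of it. The lists were also chosen with earlier results of these data known. The counts here and per list are therefore a description, and nothing is read from their distance to the share of all named genes. Centred on the chromosome medians of brighter genes, 21 were higher and 31 lower. That setting shifts every gene of a chromosome, dim ones included. The genes that passed there and not in the fit as reported included 7 Akr1c genes, with differences between 0.47 and 0.71, Ptger3 (0.34) and 4 genes of the lipoxygenase branch, all lower. Genes above the median on all 6 arrays also gained calls, such as Cbr3 (0.69), Zadh2 (-0.34) and Sik1 (-0.49), named after their values were seen. Pla2g6 (-0.10), Prxl2b (-0.11), Akr1b3 (0.14) and Pde4a (-0.15) lost their calls.

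**Figure D4:**
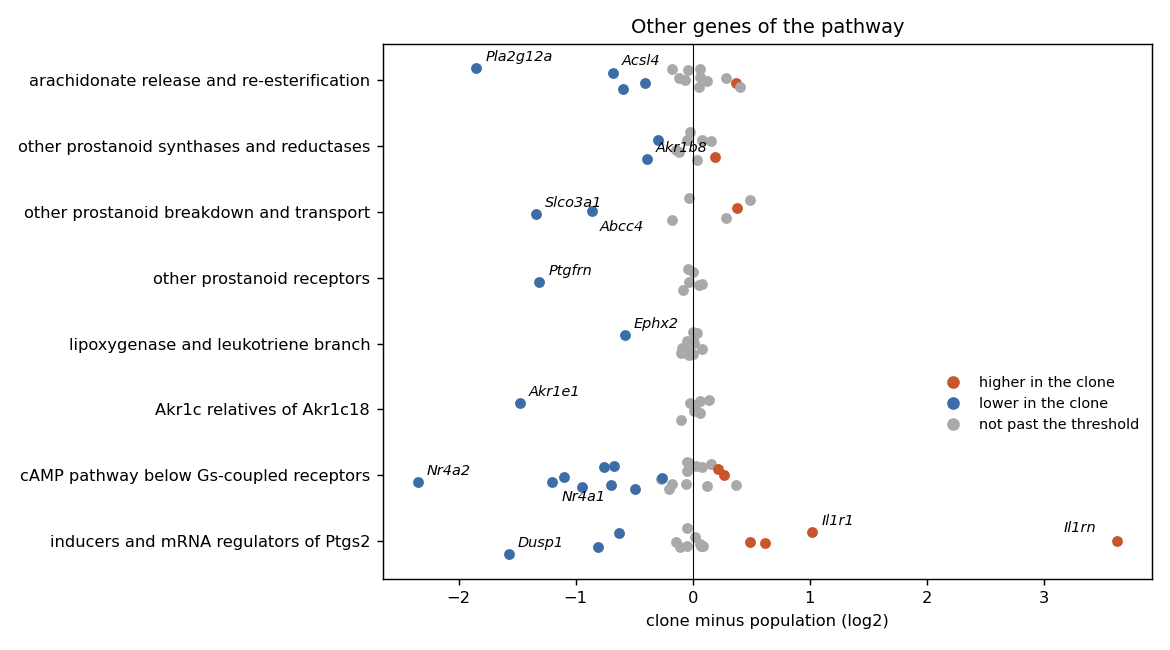
Difference between clone and population (x axis, log2) of the 99 other pathway genes by list, with genes past an adjusted p of 0.05 in orange (higher in the clone) or blue (lower) and the others in grey. Most points lie near 0; Il1rn, at 3.63, and Nr4a2, at -2.35, lie farthest out.

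Genes that release arachidonic acid or return it to membranes gave 1 higher and 4 lower of 15, with a list median of -0.04. Pla2g4a, the cytosolic phospholipase that supplies arachidonic acid to the cyclooxygenases, fell from 9.80 ± 0.10 to 9.39 ± 0.07, a difference of -0.41 ± 0.07 (adjusted p = 0.00550). The secreted phospholipase gene Pla2g12a fell more, from 7.53 ± 0.11 to 5.69 ± 0.08 (difference -1.85 ± 0.07, adjusted p = 1.29e-05). Acsl4, which activates arachidonic acid for storage in lipids, had a difference of -0.68 and the calcium-independent phospholipase gene Pla2g6 one of -0.60 (adjusted p = 0.00149 and 0.00172). Pla2g12a lies on chromosome 3 and Pla2g6 on chromosome 15. With chromosomes centred as above Pla2g12a kept its call, while Pla2g6 no longer passed (-0.10, adjusted p = 0.364). Lpcat3, which places polyunsaturated fatty acids in phospholipids, was the 1 gene that rose (0.37, adjusted p = 0.00952); it was named after its value was seen.

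The other synthases and reductases gave 1 higher and 2 lower of 10, and none came near the size of Ptges. Ptges2, a further membrane-associated prostaglandin E synthase, was at 6.55 ± 0.06 and 6.43 ± 0.18 and did not pass (adjusted p = 0.461). Ptgds, a prostaglandin D synthase, stood at 5.28 and 5.23 (adjusted p = 0.700). Akr1b8, an aldo-keto reductase, fell by 0.39 (adjusted p = 0.00233). Prxl2b, which makes prostaglandin F, had a difference of -0.30 (adjusted p = 0.0276), which no longer passed without population array 2 or 3, or without clone array 1 or 3 (adjusted p up to 0.0896). Akr1b3, which encodes aldose reductase, had one of 0.19 (adjusted p = 0.0437) that was lost whichever array was left out (adjusted p up to 0.135), and 2 of its 3 further rows did not pass.

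Transport and later breakdown genes gave 1 higher and 2 lower of 7. Abcc4, an export pump for prostaglandins and cyclic nucleotides, fell from 7.26 ± 0.15 to 6.40 ± 0.13 (difference -0.86 ± 0.10, adjusted p = 0.00108). Slco3a1, a transporter of the family that includes Slco2a1, fell from 7.34 ± 0.12 to 6.0 ± 0.13 (difference -1.34 ± 0.09, adjusted p = 0.000100), opposite in sign to Slco2a1. Ptgr1, a reductase that acts on prostaglandins after Hpgd, rose by 0.38 ± 0.05 (adjusted p = 0.00216), the direction of Hpgd at a smaller size.

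No other prostaglandin or thromboxane receptor gene passed the test, and all 6 lay below the array medians on every array. Besides Ptgir these were Ptger1 (4.69 in both groups, adjusted p = 0.995), Ptger3 (4.54 and 4.46, adjusted p = 0.385), Ptgdr (4.67 and 4.64, adjusted p = 0.845), Tbxa2r (4.62 and 4.67, adjusted p = 0.669) and Ptgdr2 (4.46 and 4.41, adjusted p = 0.685). Of the 9 receptor genes in all, Ptger4 and Ptgfr were the 2 above the array median on any array. Ptgfrn, whose product associates with the prostaglandin F receptor and is not itself such a receptor, fell from 8.48 ± 0.08 to 7.17 ± 0.09 (difference -1.31 ± 0.07, adjusted p = 3.91e-05). It lies on chromosome 3 like Ptgfr, and the 2 differences have opposite signs.

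The lipoxygenase and leukotriene branch, which uses the same arachidonic acid, gave 0 higher and 1 lower of 14, and 11 of the 14 lay below the array median on all arrays. The 1 gene that fell, Ephx2, encodes soluble epoxide hydrolase and went from 6.29 ± 0.03 to 5.71 ± 0.10 (difference -0.58 ± 0.06, adjusted p = 0.000869). Alox5 and Alox5ap, the 5-lipoxygenase and its activating protein, were at the low end, with population levels of 4.53 and 4.71 and clone levels of 4.54 and 4.68.

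Below the receptors, genes of the cyclic AMP pathway gave 2 higher and 9 lower of 23, with a median of -0.18. Nr4a2, an orphan nuclear receptor gene that cyclic AMP and other stimuli induce, fell from 7.76 ± 0.06 to 5.40 ± 0.03 (difference -2.35 ± 0.05, adjusted p = 1.76e-06). Its relative Nr4a1 fell by 1.20 (adjusted p = 4.79e-05), while Nr4a3 stood at 4.74 and 4.70 and did not pass (adjusted p = 0.680). Crem (0.12), Per1 (-0.06) and Sik1 (-0.27), named after their values were seen, did not pass either (adjusted p = 0.192, 0.709 and 0.128). The phosphodiesterase gene Pde4d, whose product breaks down cyclic AMP, had a difference of -1.10 and the adenylyl cyclase gene Adcy6, whose product makes it, one of -0.95 (adjusted p = 3.12e-05 and 3.76e-05). Nr4a1 and Adcy6 lie on chromosome 15 and Pde4d on chromosome 13, both lower as a whole. Nr4a1, Adcy6 and Pde4d each kept their call under either chromosome centring. The 2 that rose, Adcy3 (0.27) and Prkar2b (0.22), were named after their values were seen, and each lost its call when 4 of the 6 arrays were left out in turn (adjusted p up to 0.0786 and 0.0769). Among the 9 that fell, Pde4a (-0.26), also named after its value was seen, lost its call in 5 of these 6 cases (adjusted p up to 0.118).

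Inducers and mRNA regulators of Ptgs2 gave 4 higher and 3 lower of 15, and 8 did not pass. Elavl1 (0.02), Zfp36 (0.06) and Celf2 (-0.11), which bind mRNA, were among those 8 (adjusted p = 0.890, 0.577 and 0.185). Cebpb (-0.14, adjusted p = 0.205) was another, and these 4 were named after their values were seen. Il1rn, which encodes the natural antagonist of interleukin 1, an inducer of Ptgs2, rose from 5.63 ± 0.09 to 9.26 ± 0.23 (difference 3.63 ± 0.12, adjusted p = 5.70e-06). The interleukin 1 receptor gene Il1r1 rose by 1.02 ± 0.07 (adjusted p = 0.000135), while Il1a, Il1b and Tnf lay below the array medians on every array and did not pass. Nfkb1, which encodes a subunit of NF-kB, a factor known to drive Ptgs2, fell by 0.81 (adjusted p = 0.000290). It lies on chromosome 3 and kept its call under either chromosome centring. Dusp1, a phosphatase that restrains MAP kinases, fell by 1.57 (adjusted p = 2.86e-05). The remaining calls, named after their values were seen, were Tnfrsf1a (0.62) and Egr1 (0.49), both higher, and Rela (-0.63).

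Of 10 mesenchymal stromal markers 7 lay above the array median on all arrays, while Eng lay below it on all arrays and Thy1 and Nt5e in the clone only. These markers gave 2 higher and 5 lower of 10. Among all named genes 29.1% passed, the share to set beside each marker count here. Pdgfra (1.43) and Pdgfrb (0.77) rose, and Thy1 (-1.82), Nt5e (-1.81), Ly6a (-0.98), Cd44 (-0.81) and Itgb1 (-0.42) fell. Their list means were 9.01 to 9.05 on population arrays and 8.65 on clone arrays. Among markers of other marrow cells that carry prostaglandin enzymes, the leukocyte marker Ptprc stood at 4.37 and 4.39, and the endothelial markers Pecam1 and Cdh5 below 5 in both groups. The macrophage markers C1qa (6.08 and 5.92) and Lyz2 (5.38 and 5.73) and the megakaryocyte marker Itga2b (5.28 and 5.56) lay above the array median on all 6 arrays. Cd14, Cd53 and Plvap did so on the 3 population arrays only, Ppbp and Egfl7 on the 3 clone arrays only. Macrophage and leukocyte markers gave 1 higher and 2 lower of 10, with list means of 5.0 to 5.02 on population arrays and 4.83 to 4.91 on clone arrays. Mast cell markers gave 1 and 0 of 6, with list means of 4.58 to 4.67 and 4.65 to 4.70, and endothelial markers 1 and 1 of 7, with 4.56 to 4.61 and 4.57 to 4.62. Megakaryocyte and platelet markers gave 3 and 0 of 4, with list means of 4.71 to 4.83 in the population and 5.08 to 5.19 in the clone. Gp1bb, also on that list, was not measured. Ppbp, a platelet chemokine gene, was the largest of these, from 4.53 to 5.67 (adjusted p = 9.95e-05). Pf4 also passed as higher (0.23, adjusted p = 0.0424) but stayed below the array medians in both groups. Platelets carry Ptgs1, which was lower in the clone, and the part of these markers in that result was not tested.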

How the data were processed

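Biotin-labelled cRNA from 6 mouse cell samples was measured on Affymetrix arrays. The authors deposited log2 expression values; the submitters' processing notes name RMA and Partek, and the sources used here do not state the array type or build. The values ran from 3.34 to 14.4. RMA equalises the arrays, so overall RNA changes are not visible. A further deposited table gives, per the file headers, gene symbols, an unadjusted p-value and a signed fold of clone over population, whose log2 matched the difference of means within 7.81e-05. Another 6 per-array columns matched no label and were not used.

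Groups came from the titles. All 35556 rows were fitted with limma 3.58.1 in R 4.3.3 (lmFit, eBayes, two-sided). Benjamini-Hochberg adjustment ran over the whole table, with a threshold of 0.05, and every adjusted p in the text is limma's unless named otherwise. The number of arrays limits the precision. No 2 arrays of a group shared more than 5 exactly equal values. Of 25123 rows with a symbol, 3890 were renamed through RefSeq (GRCm38.p6), and the brightest row stood for a gene. Members and lists were chosen with earlier results of these data known. The text names up to 4 genes past the threshold per list, largest first, then 8 fixed genes. Ptgdr2, Nr4a3, Alox5, Alox5ap, Ptges3, Il1a, Il1b and Tnf were added after their values were seen, as were others where said. The fit was tested on simulated data, where the pass limit for recovered rows was loosened in 2 steps after failing, to large changes in rows of low simulated spread. Small changes were mostly missed in that test, so a gene that did not pass may still differ.

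Same-numbered arrays did not deviate together (r = -0.184, -0.139 and -0.035 across rows), so the numbers were not taken as pairs. Alternatives were that number as a block, centring, a second quantile normalization, a filter on dim rows, other variance models, array weights, chromosome centring, the authors' p-values and each array left out in turn.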

Additional observations from a re-analysis of the deposited data

How the results depend on the processing

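Each of the 10 genes' differences had the same sign under the 14 alternatives that give a difference (13 for Ptger2). Some of these could not change a difference. The replicate block leaves it as it is with 3 arrays per group, the filter only drops rows, and each gene had 1 row to average. The other variance models and the authors' p-values were read for calls only. The ranges were -1.81 to -1.69 for Ptgs2, -2.84 to -2.65 for Ptges, 4.11 to 4.22 for Hpgd, -4.72 to -4.03 for Akr1c18, 1.03 to 1.53 for Ptgfr and 1.14 to 1.81 for Ptger4. Ptger2, dim on every array, was left out by the filter on dim rows. Centring each chromosome on the median of its genes above the median level, added after seeing the data, moved 7 of the 10 by more than the replicate SD, and it called 52 of the 99 other pathway genes in place of 32, 21 of them higher in place of 9. With the replicate number as a block 28 of these 99 were called and 6669 of all rows in place of 8446, and the sample numbers were not taken as pairs. Leaving out single arrays gave 28 to 31 pathway calls, and 27 of the 32 genes were called in each such fit. The deposited p-values, adjusted, gave 29. Sizes for genes whose clone level lies near the lower quartile are limited by signal over background.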
